A study of Mus musculus with 7 samples.

Results

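The genes described here are 44 genes of DNA replication and mitosis, 19 of S phase and 25 of G2/M, followed in cancer-associated fibroblasts (CAFs) from mouse pancreatic tumors. They were chosen by symbol from a written list of cell cycle genes. Of the 44, 42 were found among the 12771 genes of the count table, 18 of S phase and 24 of G2/M. Cdc6 and Cenpf were not analysed here. 40 of the 42 had a mean normalized count over 5 (a count divided by the size factor of its library), and the exceptions were the G2/M genes Cdk1 and Bub1.

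The CAFs were sorted as live CD45-, CD31-, EpCAM- and PDPN+ cells, after immune and epithelial cells had been depleted on magnetic beads. The tumors were orthotopic and grew in 8-week-old male C57BL/6 J mice from the mouse pancreatic cancer line KPC, into which a lentivirus had brought a short hairpin RNA, with selection in puromycin. In the shControl group the hairpin was non-targeting (3 libraries, replicates 1, 2 and 4), and in the shBrca2 group it was directed at Brca2, a DNA repair gene (4 libraries, replicates 1 to 4). Only the injected cancer cells had the hairpin, so the fibroblasts sorted from the tumor were not silenced themselves, and each library came from 1 mouse. The comparison asks how CAFs differ between tumors whose cancer cells do and do not have Brca2 silenced.

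A cell that is going to divide first copies its DNA and then separates the copies. In G1, MCM helicase rings are loaded onto replication origins with the help of CDC6 and CDT1, and in S phase these rings unwind DNA while PCNA holds the polymerases on the template and ribonucleotide reductase supplies nucleotides. In G2 and mitosis, CDK1 with cyclins A and B drives the cell forward, Aurora and Polo kinases build the spindle, and the anaphase-promoting complex ends mitosis by marking cyclin B for destruction. Most of these genes are transcribed only in part of the cycle: S phase genes chiefly through E2F factors, and G2/M genes through the DREAM and MYB-MuvB complexes at a promoter element called CHR, often with NF-Y at nearby CCAAT boxes. Fibroblasts in tissue are mostly quiescent, so bulk RNA can mix many resting cells with few cycling ones. In such samples fewer cycling cells and less of these RNAs per cycling cell cannot be told apart.

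The promoters of the S and G2/M genes differed in the letters they held, and 6 are shown because they carry these elements or belong to the genes with the largest differences. RefSeq windows on GRCm38.p6 from 250 bases before to 50 after the transcription start were found for 34 of the 44 listed genes, 15 of S phase and 19 of G2/M. No entry was found for Gmnn, Mcm4, Gins2, Ccne2, Ccna2, Cdc25c, Aurkb, Kif20a, Tpx2 and Stmn1. Both strands were searched for the CHR (TTTGAA or TTCGAA), the NF-Y box (CCAAT) and an E2F site (TTTCCCGC, TTTCGCGC, TTTGCCGC or TTTGGCGC). In the sequences, written 5′ to 3′ on the strand of the gene, capitals mark every match. A match to the opposite strand appears as its reverse complement: ATTGG for the NF-Y box, TTCAAA for the CHR and GCGCCAAA for the E2F site TTTGGCGC. The windows lie at chr8:122567765-122568064 on the plus strand for Cdt1, chr8:75109259-75109558 on the plus strand for Mcm5, chr13:100786437-100786736 on the minus strand for Ccnb1, chr9:70421505-70421804 on the minus strand for Ccnb2, chr7:122159185-122159484 on the plus strand for Plk1 and chr11:99024140-99024439 on the minus strand for Top2a.
Cdt1: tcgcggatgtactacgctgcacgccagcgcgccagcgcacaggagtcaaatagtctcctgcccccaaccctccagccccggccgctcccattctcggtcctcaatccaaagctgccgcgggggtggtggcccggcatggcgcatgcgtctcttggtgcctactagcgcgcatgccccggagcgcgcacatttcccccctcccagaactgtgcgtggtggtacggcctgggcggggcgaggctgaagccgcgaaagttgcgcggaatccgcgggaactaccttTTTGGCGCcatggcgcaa
Mcm5: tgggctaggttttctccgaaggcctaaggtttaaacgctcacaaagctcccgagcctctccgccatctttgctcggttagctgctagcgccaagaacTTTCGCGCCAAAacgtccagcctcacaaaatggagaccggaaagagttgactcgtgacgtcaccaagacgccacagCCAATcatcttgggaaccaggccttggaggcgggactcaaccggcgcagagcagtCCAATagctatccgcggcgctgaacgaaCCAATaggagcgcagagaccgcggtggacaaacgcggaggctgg
Ccnb1: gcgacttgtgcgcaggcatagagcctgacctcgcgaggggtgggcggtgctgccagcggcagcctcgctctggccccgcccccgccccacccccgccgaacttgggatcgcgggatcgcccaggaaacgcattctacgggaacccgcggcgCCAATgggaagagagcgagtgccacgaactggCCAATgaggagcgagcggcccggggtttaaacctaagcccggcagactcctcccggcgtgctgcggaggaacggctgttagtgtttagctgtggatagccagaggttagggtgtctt
Ccnb2: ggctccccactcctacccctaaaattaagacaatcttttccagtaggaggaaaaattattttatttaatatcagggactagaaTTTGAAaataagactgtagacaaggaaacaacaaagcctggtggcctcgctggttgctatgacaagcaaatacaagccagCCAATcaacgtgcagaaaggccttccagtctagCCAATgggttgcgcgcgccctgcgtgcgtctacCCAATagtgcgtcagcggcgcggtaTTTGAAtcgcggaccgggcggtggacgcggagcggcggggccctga
Plk1: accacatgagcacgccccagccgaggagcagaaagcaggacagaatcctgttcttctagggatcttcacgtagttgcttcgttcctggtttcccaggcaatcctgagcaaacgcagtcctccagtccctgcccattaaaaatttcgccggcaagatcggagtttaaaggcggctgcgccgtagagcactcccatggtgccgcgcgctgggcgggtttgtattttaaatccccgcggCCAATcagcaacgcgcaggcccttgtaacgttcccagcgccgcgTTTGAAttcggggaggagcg
Top2a: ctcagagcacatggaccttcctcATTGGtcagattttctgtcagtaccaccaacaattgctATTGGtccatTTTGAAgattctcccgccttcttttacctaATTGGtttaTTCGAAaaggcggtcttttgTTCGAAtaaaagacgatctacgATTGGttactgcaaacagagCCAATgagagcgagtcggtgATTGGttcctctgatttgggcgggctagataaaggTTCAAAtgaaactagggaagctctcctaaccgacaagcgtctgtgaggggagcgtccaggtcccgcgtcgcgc

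The Cdt1 window held 1 E2F site and neither of the other motifs. The Mcm5 window held 2 E2F matches on opposite strands that overlap in 1 stretch of capitals, and 3 NF-Y boxes. Ccnb1 had 2 NF-Y boxes and no match to the CHR letters, Ccnb2 had 2 CHR and 3 NF-Y matches, Plk1 had 1 of each, and Top2a had 4 CHR and 6 NF-Y matches. A CHR was found in 15 of 19 G2/M windows (78.9%), in 2 of 15 S phase windows (13.3%) and in 21.7% of the 27025 genes with an entry. An E2F site was found in 7 of 15 S phase windows (46.7%), in 1 of 19 G2/M windows (5.26%), that of Cdk1, and in 2.6% of all genes. NF-Y boxes were common in both lists, in 9 of 15 S phase windows (60%) and 17 of 19 G2/M windows (89.5%) against 41.1% of all genes. CHR and NF-Y box occurred together in 15 of 19 G2/M windows and in 8.61% of all genes. These are matches of letters in a window, and binding was not measured.

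**Figure D1:**
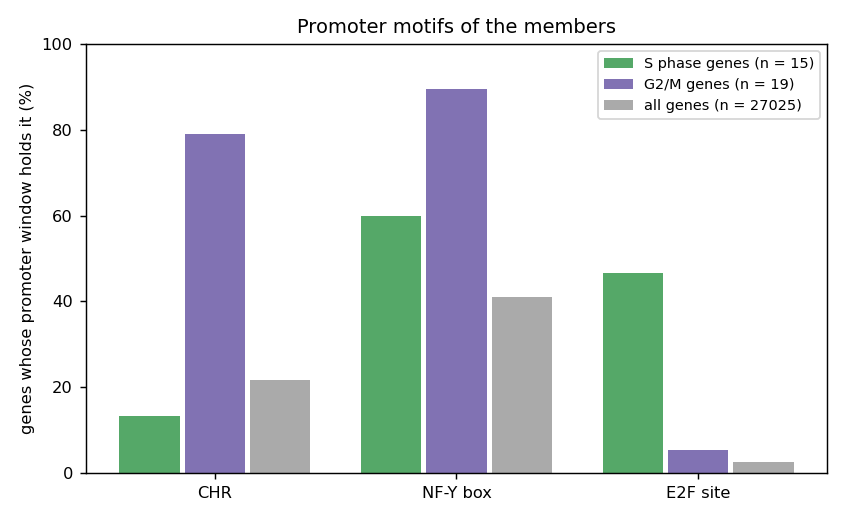
Share of genes (%) whose promoter window, 250 bases before to 50 after the start, held a CHR, an NF-Y box or an E2F site, for 15 S phase genes, 19 G2/M genes and all 27025 genes with an entry. The CHR stands highest in the G2/M genes at 78.9% and the E2F site in the S phase genes at 46.7%.

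Before the comparison, the sort was checked against marker genes. The 10 fibroblast markers were all in the table, with summed normalized counts of 125620 to 144438 in shControl and 100464 to 120032 in shBrca2 CAFs, where Dcn and Lum were called lower. Of 12 epithelial markers, 8 were in the table (Epcam was not analysed here), and 5 were called higher in shBrca2 (Krt7, Krt8, Krt18, Krt19 and Spint1). The sum of the 8 was 1027, 3624 and 2138 in the shControl libraries (replicates 1, 2 and 4) and 2271 to 3058 in the shBrca2 libraries, but it was dominated by Lcn2, a secreted lipocalin also made by other cells, with 642, 2860 and 988 against 497 to 1609 and a log2 fold change of -0.87 (SE 0.71). Without Lcn2, a choice made after its values were seen, the other 7 summed to 385, 765 and 1150 in the shControl libraries. In the shBrca2 libraries (replicates 1 to 4) they summed to 1923, 1449, 1625 and 2030, each above every shControl library. Most of this sum came from the keratins Krt7, Krt8, Krt18 and Krt19, and Krt19 is also in the mesothelial list below. Counts per library were low for Cdh1 (1 to 17), Cldn7 (0 to 9) and Spint1 (0 to 33). Of 12 immune markers 5 were in the table, with Csf1r and C1qa called higher (sums 243 to 284 against 373 to 423). Of 8 endothelial markers 4 were in the table and none was called (71.8 to 123 against 84.6 to 115). Kdr had the highest value of these in every library. The others, Pecam1, Tek and Vwf, had low counts and were lower in every shBrca2 library than in every shControl library. Pecam1 had a log2 fold change of -3.60 (SE 1.22, DESeq2 adjusted p = 0.031), but its mean of 3.87 was too low for a call. Of 9 mesothelial markers 8 were in the table and Krt19 was called higher (1022 to 3465 against 2643 to 3332), and of 7 pericyte markers 6 were, with Notch3 and Des higher (688 to 1230 against 1219 to 1608). The part of other cells in the cell cycle values below was not tested. Total counts per library ran from 1898679 to 5990579.

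Summed over each list, the libraries did not divide by group. The 18 S phase genes together took 379 CPM (counts scaled to a library of 1000000 counts) in shControl replicate 1, 583 in replicate 2 and 411 in replicate 4. In shBrca2 replicates 1 to 4 they took 738, 596, 459 and 723 CPM. The G2/M sum of 24 genes was 317, 778 and 329 CPM in the shControl libraries and 917, 752, 513 and 889 in the shBrca2 libraries. shControl replicates 1 and 4 were thus the lowest of the 7 libraries in both sums, shControl replicate 2 lay among the shBrca2 libraries, and shBrca2 replicate 3 was the lowest of its group. The 95% Wilson interval of shControl replicate 2 for the G2/M sum, 746 to 811, was far from those of shControl replicates 1 and 4, 300 to 334 and 311 to 349. The interval of shBrca2 replicate 3, 482 to 546, lay between them and all the others. These intervals cover counting error only.

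For S phase genes the group mean was 458 ± 110 CPM (SD, n = 3) in shControl CAFs and 629 ± 130 (SD, n = 4) in shBrca2 CAFs, a ratio of 1.37. For G2/M genes they were 475 ± 263 and 768 ± 185, a ratio of 1.62, and the difference of 293 was close to the SD of the shControl libraries. A score that gives each gene the same weight averages log2(normalized count + 1) over the list once every gene has been centred on its own mean. The S phase score was -0.43, 0.23 and -0.44 in the shControl libraries and 0.39, 0.23, -0.40 and 0.42 in the shBrca2 libraries, in the same order. The G2/M score was -0.74, 0.41 and -0.78 in shControl and 0.53, 0.37, -0.27 and 0.48 in shBrca2. The score difference between groups was 0.38 for S phase and 0.65 for G2/M genes. Without shControl replicate 2, singled out after its values were seen, these differences were 0.60 and 1.04, and the G2/M difference in CPM was 445. These were the largest values with any library left out, and the smallest were 0.26, 0.44 and 214. The G2/M counts divided by the S phase counts gave 0.84, 1.33 and 0.80 in the shControl libraries and 1.24, 1.26, 1.12 and 1.23 in the shBrca2 libraries. In this ratio too the 2 lowest libraries were shControl replicates 1 and 4, and the highest was shControl replicate 2.

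**Figure D2:**
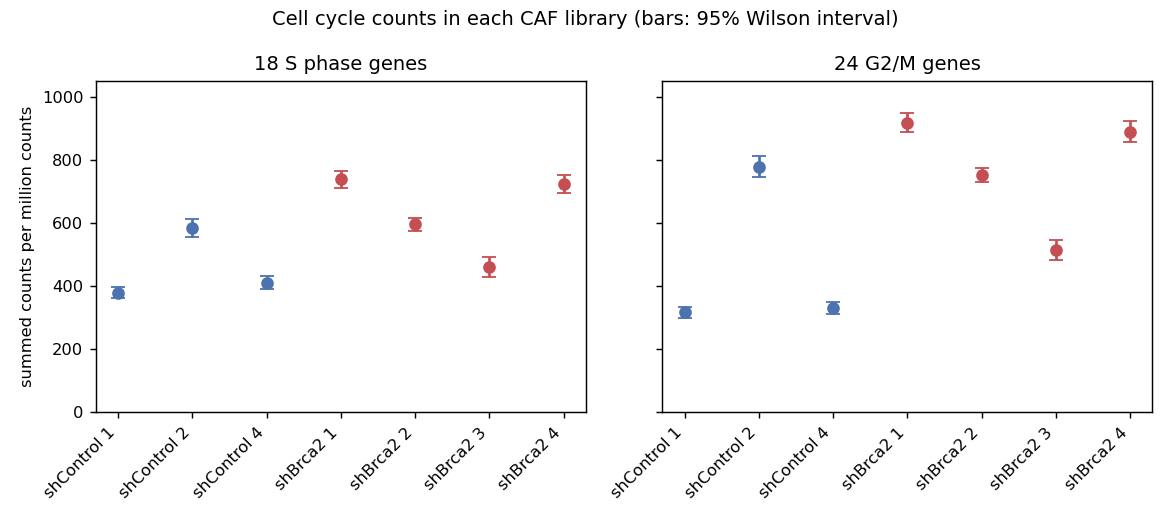
Summed counts of the 18 S phase genes (left) and 24 G2/M genes (right) in CPM in each library, shControl in blue and shBrca2 in red, with 95% Wilson intervals as bars. shControl replicate 2 stands with the shBrca2 libraries in both panels (583 and 778), and shBrca2 replicate 3 is the lowest of its group (459 and 513).

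Gene by gene, 39 of the 42 members (92.9%) had a higher estimate in shBrca2 than in shControl CAFs, against 50.9% of all genes, and 2 were called. Many members rose and fell together over the libraries, so the 42 estimates are not independent of one another. A call required a Benjamini-Hochberg adjusted p under 0.1 in the DESeq2 likelihood ratio test over all genes, an absolute log2 fold change over 0.5 and a mean normalized count over 5. 1 of 18 S phase genes, Cdt1, and 1 of 24 G2/M genes, Ccnb1, rose, where 3.77% of all genes tested were called higher. No member was called lower, where 5.27% of all genes were. The members called higher were thus 4.76% of those measured, near the share over all genes. The median log2 fold change was 0.43 for S phase genes (from -0.31 to 0.97) and 0.62 for G2/M genes (from -0.23 to 1.70), against 0.01 over all genes. The unadjusted p was under 0.05 for 13 members (31%, against 17.7% of all genes tested), 5 of S phase and 8 of G2/M, and all 13 had a 95% interval of the fold change above 0. For the other 29 members the interval included 0, and the median interval was 1.38 wide on the log2 scale, so most of these genes could not be placed on either side.

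**Figure D3:**
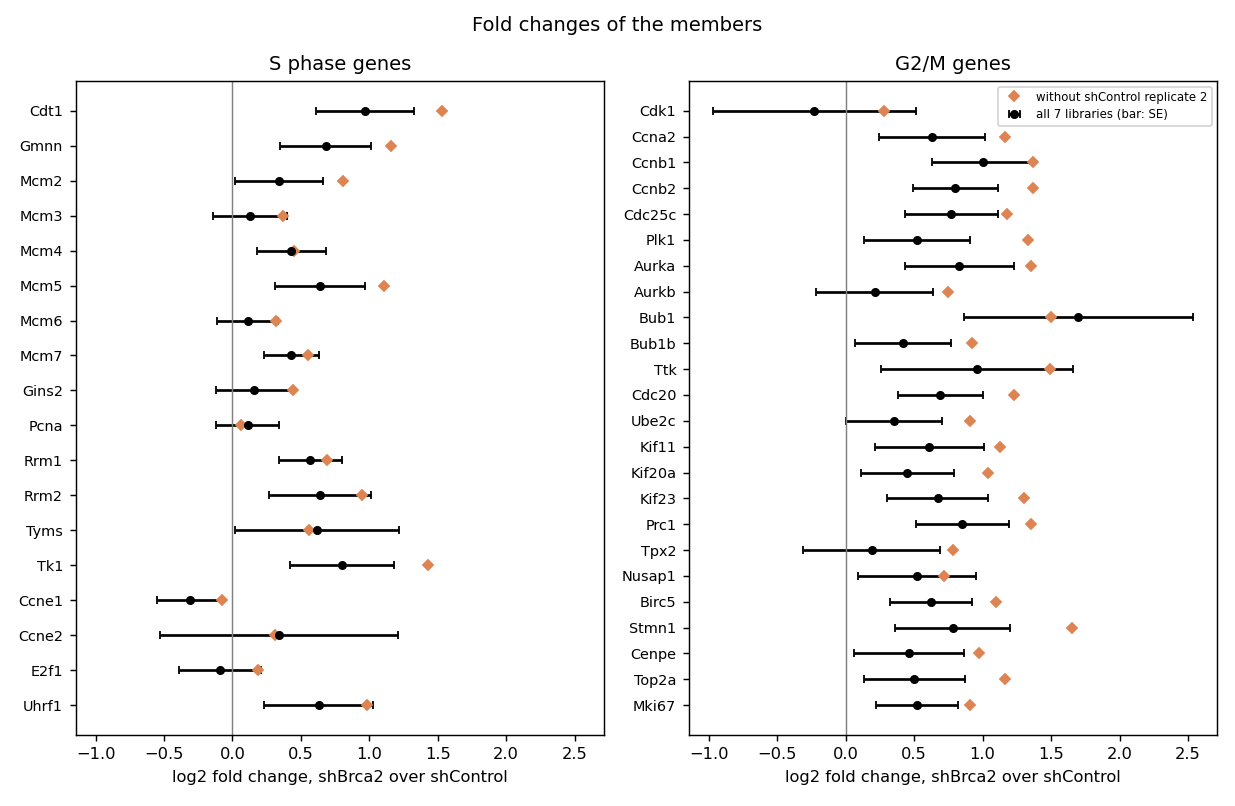
Log2 fold change (shBrca2 over shControl) of each S phase gene (left) and G2/M gene (right) with all 7 libraries, with the standard error as a bar, and the same estimate without shControl replicate 2 (diamonds). 39 of 42 black points lie above 0, and most diamonds lie further right, above all among the G2/M genes.

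Among the genes that load and fire origins, all 9 measured had a positive estimate, with a median of 0.43, and Cdt1 was the only one called. Cdt1 (GRCm38.p6 chr8:122568015-122573130, plus strand) encodes the factor that brings the MCM rings to origins. It had 24.8, 68.3 and 30.2 normalized counts in the shControl libraries (replicates 1, 2 and 4, an order kept from here on) and 98.1, 66.4, 60.4 and 89.4 in the shBrca2 libraries (replicates 1 to 4). shControl replicates 1 and 4 were below every shBrca2 library, and shControl replicate 2 was above shBrca2 replicates 2 and 3, so the groups overlapped. The means were 41.1 ± 23.7 (SD, n = 3) and 78.6 ± 18 (SD, n = 4), and the log2 fold change was 0.97 (SE 0.36, DESeq2 adjusted p = 0.085). The call was lost without shControl replicate 1 (DESeq2 adjusted p = 0.42), shControl replicate 4 (0.36), shBrca2 replicate 1 (0.32) or shBrca2 replicate 4 (0.24).

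Gmnn encodes geminin, which binds CDT1 and stops a second round of loading. It was measured at 33.3, 79.7 and 37.9 normalized counts in shControl and 91.2, 81.6, 55.3 and 87.4 in shBrca2 libraries, the same order of libraries within each group as the G2/M sum. Its log2 fold change of 0.68 (SE 0.33) was not called (DESeq2 adjusted p = 0.25). Mcm7, a subunit of the helicase ring, was 96.5, 138 and 122 in shControl and 161, 170, 152 and 152 in shBrca2, so that every shBrca2 library was above every shControl library, with a log2 fold change of 0.43 (SE 0.20) that was not called (DESeq2 adjusted p = 0.20). Such separation was seen in 3 of the 42 members, Mcm7, Tyms and Bub1, and in 7.78% of all genes. The most abundant gene of the role, the helicase subunit Mcm6, was nearly level at 168 ± 42.9 against 181 ± 20.8 normalized counts and a log2 fold change of 0.11 (SE 0.22). Mcm3 (0.13) and Gins2 (0.16) were as close to 0, while Mcm5 was at 0.64 (SE 0.33).

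Of the 5 genes of the replication fork and the nucleotide supply, none was called, although all 5 had a positive estimate. Rrm1 encodes the large subunit of ribonucleotide reductase and had the highest counts of the role, 156, 238 and 218 in shControl and 358, 278, 219 and 350 in shBrca2 libraries. shBrca2 replicate 3 lay within the shControl range and the other shBrca2 libraries lay above it. The log2 fold change was 0.57 (SE 0.23, DESeq2 adjusted p = 0.13). Tk1, thymidine kinase of the salvage pathway, was spread more widely, at 64.1, 180 and 70 in shControl and 201, 199, 89.8 and 228 in shBrca2, with a log2 fold change of 0.80 (SE 0.38, DESeq2 adjusted p = 0.25). Tyms, thymidylate synthase, had 4 to 16 counts per library, and its separation between groups came with a log2 fold change of 0.62 and an SE of 0.60. Pcna, the sliding clamp, did not follow the other S phase genes: its normalized counts were 237, 187 and 182 in shControl and 189, 294, 173 and 212 in shBrca2, with a log2 fold change of 0.11 (SE 0.23). Pcna was singled out after its values were seen.

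The G1/S regulators held 2 of the 3 negative estimates. E2f1, an activator of S phase transcription and the most abundant gene of this role, was 78.6, 135 and 84.6 normalized counts in shControl and 118, 93.8, 53.5 and 102 in shBrca2 libraries. Its highest library was shControl replicate 2 and its lowest shBrca2 replicate 3, and the log2 fold change was -0.09 (SE 0.30). Ccne1, the E-type cyclin that starts S phase with CDK2, was at 91.4, 138 and 85.6 against 82.6, 82.2, 81.2 and 89.4, a log2 fold change of -0.31 (SE 0.24). Ccne2 had 0 to 18 counts and an SE of 0.87, and Uhrf1, which carries DNA methylation over to the new strand, was at 0.63 (SE 0.40).

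In the group of mitotic kinases, cyclins and the phosphatase Cdc25c, 7 of 8 genes had a positive estimate, with a median of 0.70, and Ccnb1 was called. Ccnb1 (GRCm38.p6 chr13:100778739-100786486, minus strand) encodes cyclin B1, the partner with which CDK1 starts mitosis. Its normalized counts were 41, 75.9 and 38.9 in shControl and 112, 120, 43.2 and 133 in shBrca2 libraries. 3 shBrca2 libraries were above every shControl library, and shBrca2 replicate 3 was close to shControl replicates 1 and 4. The means were 51.9 ± 20.8 (SD, n = 3) and 102 ± 40.2 (SD, n = 4). The fitted log2 fold change was 1.0 (SE 0.37, DESeq2 adjusted p = 0.085). The call was lost without shControl replicate 1 or 4 (DESeq2 adjusted p = 0.32 in both) and without shBrca2 replicate 1, 2 or 4 (0.22, 0.18 and 0.28).

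Ccnb2, the second B-type cyclin and the most abundant gene of this role, was 91.4, 215 and 82.7 in shControl and 225, 258, 183 and 230 in shBrca2 libraries. Its log2 fold change of 0.80 (SE 0.31) narrowly missed the threshold (DESeq2 adjusted p = 0.11). Cdc25c, the phosphatase that removes the brake from CDK1, was at 0.77 (SE 0.34), with 23.1, 45.5 and 21.4 against 61.1, 46, 36.3 and 55.9 normalized counts. In both genes shControl replicate 2 lay inside the shBrca2 range and the other shControl libraries lay below it. Aurka, the centrosomal Aurora kinase, was at 0.83 (SE 0.40), and Aurkb, the kinase of the chromosomal passenger complex, at 0.21. Plk1, a Polo kinase, was highest in shControl replicate 2 of all libraries: 81.1, 252 and 72 in shControl against 237, 183, 126 and 220 in shBrca2, with a log2 fold change of 0.52 (SE 0.39). Cdk1 had 3 to 9 counts per library, and its estimate of -0.23 had an SE of 0.74.

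All 5 genes of the spindle checkpoint and the anaphase-promoting complex had a positive estimate and none was called. Bub1, a checkpoint kinase, had the largest estimate of all members, 1.70, on 1 to 12 counts per library and with an SE of 0.84 (DESeq2 adjusted p = 0.23). Cdc20, the activator of the anaphase-promoting complex, was 60.6, 161 and 73 normalized counts in shControl and 167, 139, 147 and 173 in shBrca2 libraries, a log2 fold change of 0.69 (SE 0.31, DESeq2 adjusted p = 0.20). Here shBrca2 replicate 3 was level with its group and shControl replicate 2 was not with its own. Ube2c, the ubiquitin-conjugating enzyme of the same complex and the most abundant gene of the role, was 171, 436 and 189 in shControl and 392, 402, 183 and 369 in shBrca2, so that 1 library of each group stood with the other group.

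The 8 genes of spindle motors, microtubules and cytokinesis all had a positive estimate, with a median of 0.62. Prc1, which bundles microtubules at the midzone of the spindle, was 58.9, 118 and 43.8 in shControl and 146, 145, 81.2 and 148 in shBrca2 libraries, with a log2 fold change of 0.85 (SE 0.34, DESeq2 adjusted p = 0.13). Birc5 encodes survivin, a subunit of the chromosomal passenger complex, and was the most abundant gene of the role, with 77.7, 199 and 102 against 213, 182, 159 and 212 and a log2 fold change of 0.62 (SE 0.30, DESeq2 adjusted p = 0.25). Both were higher in the shBrca2 libraries than in shControl replicates 1 and 4, and shControl replicate 2 overlapped them. Among the genes of chromosomes and the centromere, Top2a, the topoisomerase that untangles the copied DNA, was 120, 343 and 127 in shControl and 348, 282, 159 and 316 in shBrca2 libraries, with a log2 fold change of 0.50 (SE 0.37, DESeq2 adjusted p = 0.55). Mki67, the proliferation antigen Ki-67, was 41, 97.4 and 58.4 against 102, 76.9, 96.7 and 97.6, with a log2 fold change of 0.52 (SE 0.30, DESeq2 adjusted p = 0.37).

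**Figure D4:**
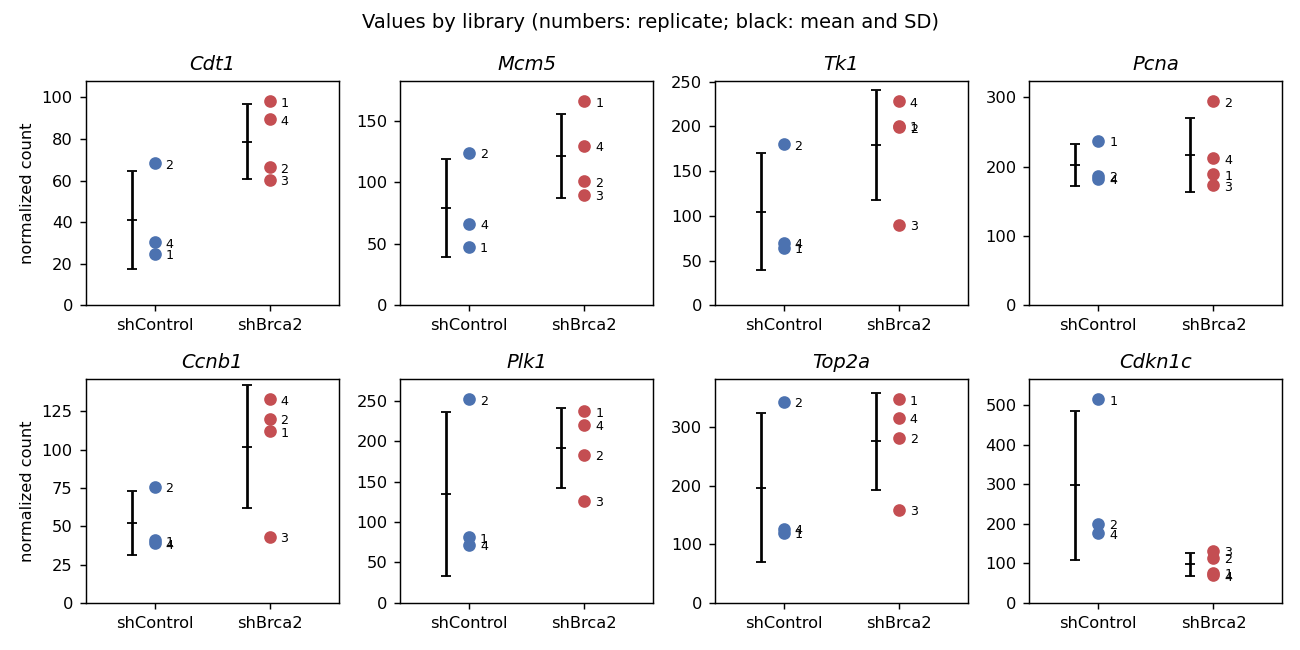
Normalized counts of 7 members and of Cdkn1c by library, shControl in blue and shBrca2 in red, with the replicate number beside each point and the group mean and SD in black. In Cdt1, Tk1, Ccnb1, Plk1 and Top2a, shControl replicate 2 lies apart from shControl replicates 1 and 4, and in Cdkn1c every shBrca2 library is below every shControl library.

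The same libraries departed from their groups in most members. shControl replicate 2 was the highest control in 37 of 42 members (88.1%, 14 of S phase and 23 of G2/M), where it was in 35.4% of all genes. shBrca2 replicate 3 was the lowest of its group in 35 of 42 (83.3%), against 31.8% of all genes. In 39 members (92.9%) shControl replicate 2 was above shBrca2 replicate 3, against 49% of all genes. shControl replicates 1 and 4 were below every shBrca2 library in 26 members (61.9%, 9 of S phase and 17 of G2/M), against 15.6% of all genes. In the epithelial markers without Lcn2, shControl replicate 2 was at 765, below every shBrca2 library. There shBrca2 replicate 3, at 1625, was within the range of its group. With Lcn2, shControl replicate 2 had the highest epithelial sum of all libraries, 3624, and shBrca2 replicate 3 the lowest of its group, 2271. In the pericyte markers, shControl replicate 2 was also the highest control, and shBrca2 replicate 3 also the lowest of its group. These sums were 688, 1230 and 784 in shControl and 1608, 1348, 1219 and 1328 in shBrca2 libraries. Des had the largest part in them, with 344, 824 and 410 against 1129, 1015, 775 and 880. Besides Des, only Rgs5, on 1 to 8 counts, had both features. shBrca2 replicate 3 was the highest of its group in Notch3 (128) and Cspg4 (119). shControl replicate 2 was the lowest control in Kcnj8 (149) and Abcc9 (27.8). Fibroblast, immune, endothelial and mesothelial sums did not have both features. shBrca2 replicate 3 had the lowest total count, whose part in the cell cycle values was not tested.

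**Figure D5:**
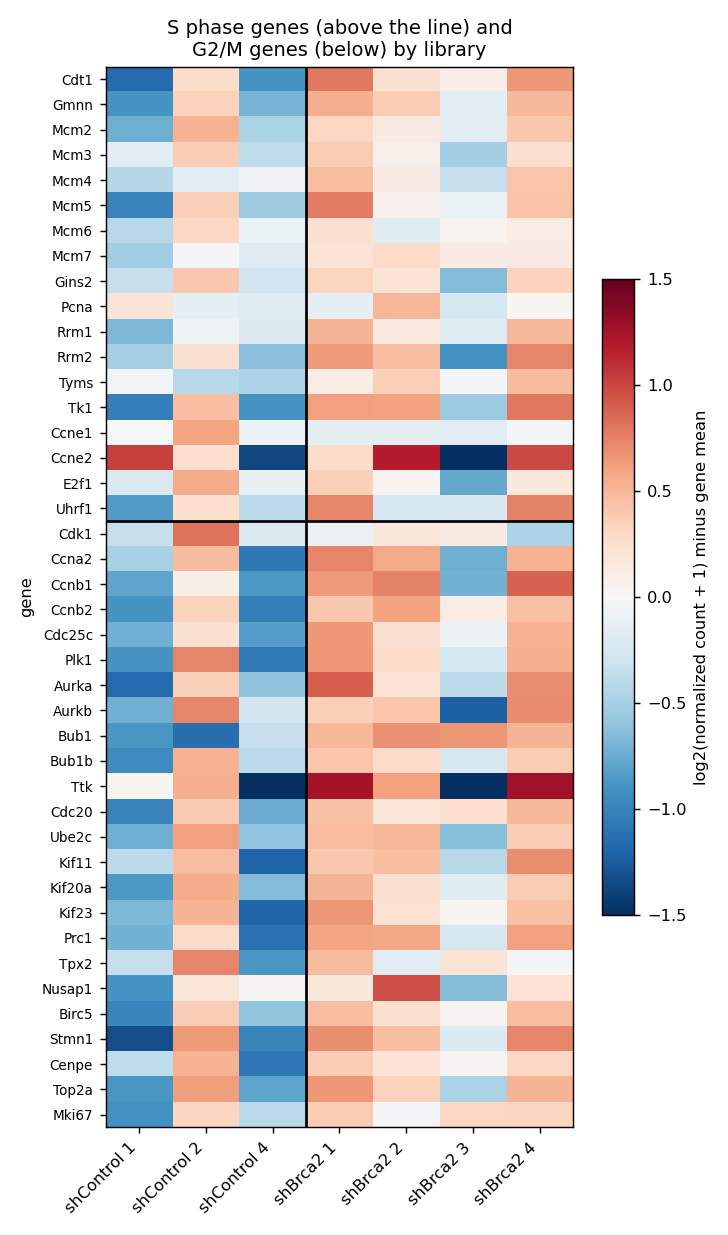
Log2(normalized count + 1) of the 42 members in 7 libraries, centred on the mean of each gene, with S phase genes above the horizontal line and shControl libraries left of the vertical line. shControl replicate 2 is the highest control in 37 genes and shBrca2 replicate 3 the lowest shBrca2 library in 35.

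Leaving out 1 library therefore moved the counts of calls. Without shControl replicate 2, 23 members were called higher, 6 of S phase (Cdt1, Gmnn, Mcm2, Mcm5, Rrm1 and Tk1) and 17 of G2/M, where 4.87% of all genes were. The median log2 fold change was then 0.55 for S phase and 1.16 for G2/M genes, with Stmn1, a microtubule-destabilizing protein, at 1.65, Cdt1 at 1.53 and Tk1 at 1.43. Without shBrca2 replicate 3, 7 members were called higher, 4 of S phase (Cdt1, Rrm1, Rrm2 and Tk1) and 3 of G2/M (Ccnb1, Ccnb2 and Prc1), where 3.98% of all genes were, and the medians were 0.62 and 0.71. Without shControl replicate 1 or 4, or without shBrca2 replicate 1 or 4, no member was called, with an unadjusted p under 0.05 in DESeq2 for 1, 3, 4 and 4 members. Without shBrca2 replicate 2, Cdt1 alone was called. edgeR's quasi-likelihood test on all 7 libraries called no member, with 13 at an unadjusted p under 0.05.

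Members with and without a promoter motif had fold changes in overlapping ranges. The 14 measured G2/M genes with a CHR had a median log2 fold change of 0.64 (from -0.23 to 1.70), and the 4 without had one of 0.57 (from 0.46 to 1.0), Ccnb1 among them. The 6 measured S phase genes with an E2F site had a median of 0.53 (from 0.11 to 0.97), and the 8 without had one of 0.45 (from -0.31 to 0.80).

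Other genes of the cycle, from lists that share no gene with the members, were read beside them. Of 40 other S phase genes 1 rose, Chaf1b, a subunit of the chromatin assembly factor that places histones on new DNA (41, 96.1 and 42.8 in shControl libraries against 125, 100, 86.4 and 130, log2 fold change 0.90, SE 0.32, DESeq2 adjusted p = 0.065), and the median of the list was 0.31. Of 42 other G2/M genes measured, 2 rose and 1 fell, with a median of 0.50. Cenpa, the histone variant of the centromere, was 147, 352 and 149 in shControl and 412, 414, 373 and 438 in shBrca2 libraries, with every shBrca2 library above every shControl library and a log2 fold change of 0.93 (SE 0.29, DESeq2 adjusted p = 0.030). Spc25, of the kinetochore complex that grips microtubules, was at 1.09 (SE 0.40, DESeq2 adjusted p = 0.078). Pttg1, securin, which holds back the enzyme that parts sister chromatids, fell by 0.64 on the log2 scale (SE 0.22, DESeq2 adjusted p = 0.051), with 205, 172 and 237 in shControl against 104, 159, 147 and 117 in shBrca2. The calls of all 4 genes were lost without shControl replicate 1 or 4 (DESeq2 adjusted p from 0.19 to 0.40). Those of Chaf1b, Spc25 and Pttg1 were also lost without shBrca2 replicate 1 or 4 (DESeq2 adjusted p from 0.18 to 0.31), and that of Spc25 without shBrca2 replicate 2 (0.20). The shares called higher, 2.5% of the other S phase and 4.76% of the other G2/M genes, were near the 3.77% of all genes tested. Over all genes, 5.27% were called lower. Without shControl replicate 2, 21 of the other G2/M genes were called higher, where 4.87% of all genes were.

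Of 16 regulators of G1 entry, which act before S phase, 11 had a positive estimate (median 0.29), none was called higher and 2 fell. Over all genes, 3.77% were called higher and 5.27% lower. Myc, a transcription factor of growth, was 1672, 557 and 1923 normalized counts in shControl and 280, 602, 589 and 312 in shBrca2 libraries, a log2 fold change of -1.64 (SE 0.54, DESeq2 adjusted p = 0.040). Again shControl replicate 2 stood with the shBrca2 libraries. Ccnd2, cyclin D2, was 427, 368 and 409 against 341, 291, 218 and 257, a log2 fold change of -0.53 (SE 0.19, DESeq2 adjusted p = 0.062). Cdk4, the kinase partner of the D-type cyclins, was higher in every shBrca2 library (1163 to 1242 against 1402 to 1671), but its log2 fold change of 0.36 (SE 0.13) was under the threshold for a call. Such separation upward was seen in 3 of the 16 genes, Cdk4, Cdk6 and E2f2, and in 7.78% of all genes. Ccnd2 was separated downward. Cdk6 was at 0.60 (SE 0.24, DESeq2 adjusted p = 0.12), and E2f2, on 5 to 20 counts, at 0.89 (SE 0.55). The call of Myc was lost without shControl replicate 1 or 4 (DESeq2 adjusted p = 0.24 in both) or shBrca2 replicate 4 (0.19), and that of Ccnd2 without any library but shControl replicate 2 or shBrca2 replicate 1 (DESeq2 adjusted p from 0.12 to 0.32).

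Of 20 brakes and quiescence genes, 1 was called, lower, where 5.27% of all genes were called lower. The median log2 fold change was 0.13. Cdkn1c, which encodes the cyclin-dependent kinase inhibitor p57, was 515, 200 and 176 normalized counts in shControl and 75.7, 114, 131 and 70.1 in shBrca2 libraries. Every shBrca2 library was below every shControl library, and shControl replicate 1 was far above shControl replicates 2 and 4. The log2 fold change was -1.61 (SE 0.37, DESeq2 adjusted p = 6.8e-04), and without shControl replicate 1 it was -0.95 (DESeq2 adjusted p = 0.032).

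The 10 genes outside the 44 whose log2 values over the 7 libraries ran most like the G2/M score were Tmem59l (Pearson r = 0.993), Got2 (0.992), Cenpm, Pmf1, Cenph, Nuf2, Eif4ebp1, Hmmr, Cdca8 and Nubp1 (0.981). Cenpm, Pmf1, Cenph and Nuf2 encode proteins of the centromere or kinetochore, Hmmr a spindle protein and Cdca8 a subunit of the chromosomal passenger complex. Tmem59l was 27.3, 105 and 26.3 in shControl and 116, 85.1, 53.5 and 115 in shBrca2 libraries, and Got2, the mitochondrial aspartate aminotransferase, was 206, 391 and 224 against 404, 381, 259 and 399. Within the members, each S phase gene was compared with this score, and each G2/M gene with the score of the other G2/M genes. Top2a, Gmnn and Tk1 had r = 0.99, and Pcna (0.16), Ccne1 (0.23) and Cdk1 (0.30) had the lowest values. All these coefficients rest on 7 libraries that share their depth and size factors.

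21 of the 42 members share exon bases with another gene in GENCODE vM39, 3 of them on the same strand (Mcm7, Stmn1 and Top2a), and whether strand was used in counting is not given in the sources used here. Reads from bases shared on opposite strands cannot be told apart where strand was not used. Those from bases shared on the same strand cannot be told apart in either case. Cdt1 and Ccnb1 share none. Each group is a few mice of 1 cancer cell line.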

How the data were processed

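RNA of 7 sorted CAF samples was turned into 3′ end libraries with a variant of MARS-seq and sequenced on a NextSeq. The authors deposited raw counts per gene, whole numbers that were not normalized. The submitters' processing notes name bcl2fastq, cutadapt, STAR 2.4.2a, HTSeq, DESeq2 and the mm10 build. Annotation, strand setting and collapsing of molecular barcodes are not given in the sources used here, so PCR copies may be among the counts.

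Groups came from the labelled BRCA2 status of the KPC cells, and count columns were matched to samples by their titles. DESeq2 1.42.0 (R 4.3.3) with its default size factors and likelihood ratio test for group, as in the study's methods, was fitted to all genes and 7 libraries with Benjamini-Hochberg adjustment. 3 genes received no p. Fold changes are not shrunken. Errors are SE for fold changes and SD for means. The members and the other lists were chosen with earlier results of these data known. Genes named were all called members, uncalled members with the smallest unadjusted p up to 10, the member with the highest mean of each role, called genes of the other cell cycle lists, and the 10 genes with mean normalized count over 20 most like the G2/M score. Other members named with values (Mcm3, Mcm5, Gins2, Tyms, Pcna, Ccne1, Ccne2, Uhrf1, Cdk1, Plk1, Aurkb, Mki67, Gmnn, Tk1, Aurka, Stmn1) and Cdk4, Cdk6 and E2f2 were picked after their values were seen. Shares of counts have 95% Wilson intervals. Alternatives were edgeR 4.0.16, the Wald test, TMM or total-count size factors, a filter of 10 counts in 3 libraries, pseudocounts of 0.5 and 5, a replicate block and leaving out each library. The code was tested on simulated data. Promoter windows and gene positions are from RefSeq on GRCm38.p6, the same build as mm10.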

Additional observations from a re-analysis of the deposited data

Results flagged for a closer look

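In 2 of 46 measures tested for a library far from the rest of its group, both among the 4 shBrca2 libraries, 1 library stood apart. Ube2c had 183 normalized counts in shBrca2 replicate 3, against 369 to 402 in the other 3, a gap that is 0.85 of the whole range. Prc1 had 81.2 in the same library, against 145 to 148 in the others, a gap of 0.94 of the range. Both passed Dixon's 95% limit for 4 samples, and chance gives about 1 in 20 groups such a gap, close to the 2 of 46 found. The limit for 4 samples says nothing of the 3 shControl libraries.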

How the results depend on the processing

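All members together gave calls that depended on the libraries used. With each library left out in turn, the members called higher ran from 0 to 6 for S phase and from 0 to 17 for G2/M, other S phase genes from 0 to 4, other G2/M genes from 0 to 21 higher and 0 to 1 lower, G1 entry regulators from 0 to 1 higher and 0 to 2 lower, brakes and quiescence genes from 0 to 1 higher, and all genes from 261 to 610 higher and 354 to 695 lower. The causes were not tested. edgeR called 0 S phase and 0 G2/M members. Total-count size factors, under which the median log2 fold change of all genes was 0.12 in place of 0.01, called 3 S phase and 4 G2/M members, 2 other S phase genes, 5 other G2/M genes higher and 0 lower, and 1 G1 entry regulator in each direction. The low-count filter called 2 G2/M members and 1 G1 entry regulator higher. The Wald test and TMM factors changed none of these counts by over 1.5 times.

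The replicate numbers did not pair the samples: deviations of same-numbered libraries from their group means correlated at -0.09, -0.13 and -0.14, and no shControl library correlated best with the shBrca2 library of its own number. With the replicate block, in the 6 libraries with shared numbers, 242 genes were called higher and 322 lower, with 1 S phase member (Tk1, while the call of Cdt1 was lost at a log2 fold change of 1.16 and DESeq2 adjusted p = 0.17), 3 G2/M members (Ccnb1, Ccnb2 and Prc1) and 0 other S phase genes higher, 0 other G2/M genes lower and 0 G1 entry regulators lower.

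Some members with estimates near 0 changed sign. With each library left out in turn, Mcm3 ran from -0.02 to 0.37, Mcm6 from -0.05 to 0.32, Pcna from -0.08 to 0.24, Ccne2 from -0.15 to 1.18, E2f1 from -0.24 to 0.19, Cdk1 from -0.49 to 0.28, Aurkb from -0.06 to 0.75 and Tpx2 from -0.13 to 0.78 on the log2 scale. E2f1 was at 0.03 with total-count factors and 0.10 with the block. The differences in score and in share of counts kept their sign under every alternative run, from 0.26 to 0.60 for the S phase score and from 0.44 to 1.04 for the G2/M score with a library left out. Bub1, Cdk1, Ccne2 and Tyms had 0 to 18 counts per library, with standard errors of 0.60 to 0.87.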
